A study of Mus musculus with 8 samples.

Results

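Calmodulin genes and the Iqcf genes, a family that encodes small calmodulin-binding proteins with IQ motifs, were followed in mouse undifferentiated spermatogonia after deletion of Tert. The set was a list of 7 gene symbols (Calm2, Calm3, Iqcf1, Iqcf3, Iqcf4, Iqcf5 and Iqcf6), of which 6 had a row among the 14853 rows of the authors' deposited table. Iqcf6 was not analysed here beyond its promoter and coding sequence. The members were selected on results of this comparison, so their log2 fold changes and adjusted p values are given as a description. Total RNA was sequenced from 4 samples of genotype TERTCreER/flox:Rosalsl-Tdtomato/+ (TERT-del in the titles) and 4 of genotype TERTCreER/+:Rosalsl-Tdtomato/+ (TERT-hetero). All mice were C57BL/6, 8 to 12 weeks old, and received tamoxifen, which switches on the CreER recombinase named at the Tert locus in both groups. On day 7, MCAM-high, KIT-negative, tdTomato-positive cells were sorted. Both groups therefore carry 1 CreER allele, and the controls are heterozygous and not wild type, although the name of the comparison calls them WT. The labels do not say whether each sample came from a separate mouse, so p-values measure only the spread between these samples.

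Calmodulin is a small EF-hand protein that binds calcium and then grips short helices of its partners. Calm2 and Calm3 are separate genes that encode the same protein. Many partners carry an IQ motif, a stretch that holds calmodulin with or without calcium. Dividing cells use calmodulin at the spindle and in kinase and phosphatase signalling, and sperm use it in motility and in the acrosome reaction. The Iqcf genes are known mainly from testis, where their transcripts appear in spermatids, the haploid cells that become sperm.

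The Iqcf genes lie side by side, so the bases around their start sites are shown first, from the RefSeq promoter windows of GRCm38.p6. Each stretch runs 5′ to 3′ on the gene's own strand from 80 bases before the start to 10 bases after it. Capitals mark the match to TGACNTCA, the cyclic AMP response element TGACGTCA with its central base left free.
Iqcf1, chr9:106499887-106499976, plus strand: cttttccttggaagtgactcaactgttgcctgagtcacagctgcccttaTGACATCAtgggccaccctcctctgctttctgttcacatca
Iqcf3, first start, chr9:106561617-106561706, minus strand: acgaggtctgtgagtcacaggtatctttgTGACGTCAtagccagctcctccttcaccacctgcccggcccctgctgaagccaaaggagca
Iqcf3, inner start, chr9:106544677-106544766, minus strand: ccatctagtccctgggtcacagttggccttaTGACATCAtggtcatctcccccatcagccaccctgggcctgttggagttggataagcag
Iqcf5, chr9:106514493-106514582, plus strand: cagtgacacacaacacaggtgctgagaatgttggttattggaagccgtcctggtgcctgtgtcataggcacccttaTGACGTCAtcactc
Iqcf4, chr9:106570958-106571047, minus strand: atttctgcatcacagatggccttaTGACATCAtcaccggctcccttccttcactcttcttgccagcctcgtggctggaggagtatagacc

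All 4 Iqcf genes with a row held this match between 56 bases before and 4 bases after a start. Iqcf3 and Iqcf5 had the full element TGACGTCA, which 1.79% of all 32851 promoter windows of 300 bases held on either strand. Iqcf1, Iqcf4 and the inner start of Iqcf3 had TGACATCA, held by 3.62% of windows. A longer run, CCTTATGACNTCAT, was defined as the bases around the match shared by Iqcf1, Iqcf4, Iqcf5 and the inner start of Iqcf3. Its presence in these 4 windows was therefore fixed by its definition. Searched on both strands, the run occurred in 6 of the 32851 windows, and 4 of those 6 were these Iqcf windows. The remaining windows belonged to Gm30521 and 1700119H24Rik, which had no values here. Of the 11639 genes of the table with a promoter window, 4 held the longer run, and these were Iqcf1, Iqcf3, Iqcf4 and Iqcf5. TGACATCA, TGACNTCA and the longer run overlap TGACGTCA in part and were chosen after the sequences were seen. The Iqcf6 window held none of TGACGTCA, TGACATCA and TGACNTCA. It had the shorter TGACG, found in 20.8% of windows, 18 to 14 bases before its start. It also had GGGCGG, a GC box, 47 to 42 bases before its start. A match is a description of letters and says nothing about binding.

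The Calm3 window is printed whole as the contrast, since it is rich in G and C, with GGGCGG in capitals.
Calm3, chr7:16923983-16924282, minus strand: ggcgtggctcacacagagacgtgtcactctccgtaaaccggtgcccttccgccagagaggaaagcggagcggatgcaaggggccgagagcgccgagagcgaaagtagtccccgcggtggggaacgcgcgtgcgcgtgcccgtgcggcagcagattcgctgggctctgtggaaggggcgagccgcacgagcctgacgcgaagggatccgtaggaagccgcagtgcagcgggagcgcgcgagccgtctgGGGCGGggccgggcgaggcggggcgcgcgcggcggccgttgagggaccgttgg

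G and C made up 72% of the Calm3 window, above 93.1% of all windows, whose median was 52.7%. The Iqcf windows of genes with values ranged from 44.3% for Iqcf1 to 54.3% for the first start of Iqcf3. GGGCGG occurred in 35.7% of all windows, in Calm3 and in none of the windows of Iqcf1, Iqcf3, Iqcf4 and Iqcf5. Among the 11639 genes of the table with a promoter window the shares were higher, at 64.8% for GGGCGG and 33.4% for TGACG. Calm3 had no match to TGACNTCA, which 8.83% of all windows held, and had the shorter TGACG, found in 20.8% of windows, at 59 to 55 bases before its start. CACGTG, the E-box, was found in 7.15% of windows and in neither Calm3 nor any Iqcf window. CCAAT, held by 37.4% of windows, occurred in the Iqcf3, Iqcf5 and Iqcf6 windows and not in those of Calm3, Iqcf1 and Iqcf4. The Calm4 and Calm5 windows held it as well. TATAAA, held by 13.6% of windows, occurred in Iqcf5 and in neither Calm3 nor another Iqcf window. TGACNTCA was also matched outside the Iqcf windows, since Calm4 and Calm5 held TGACATCA on the opposite strand, 124 to 117 and 168 to 161 bases before their starts, and Calml4 had no match. A promoter window of Calm2 was not used here.

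Values are those of the authors' comparison, read as CreER/flox over CreER/+ on the log2 scale with the standard error (SE) of the fitted change. Values per library were not used here, so the spread between samples appears only through the SE. A gene was called at an adjusted p under 0.05. In the authors' deposited table Tert, the targeted gene, was not called (0.29, adjusted p 0.595, SE 0.26, mean normalized count 98.0), and since which part Cre deletes is not known here, this checks neither the labels nor the direction. All 21 listed markers of undifferentiated spermatogonia had rows, with mean counts in the authors' deposited table from 30.0 for Pax7 to 5143 for Zbtb16. All 36 listed spermatid markers also had rows there, at 10.4 to 2304, so having a row does not tell cell types apart. Mcam, which the sort selected for, had a mean count of 4854 in the authors' deposited table. Kit, which the sort selected against, had a mean count of 93.1 in the authors' deposited table.

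The calmodulin genes were abundant and slightly higher in the flox samples. Over all rows, 796 genes (5.36%) were called, 288 (1.94%) higher and 508 (3.42%) lower, and of the 6 members 2 were called higher and 2 lower. Nothing is read from these counts, because the members were chosen with the comparison known. All 4 calls rest on the normal distribution of the test statistic, and with a t distribution of 6 degrees of freedom the adjusted p of each was 0.439 and 0 genes of the table were called. Calm3 (Entrez gene 12315, chromosome 7, 16915379 to 16924032) stood at 0.37 (adjusted p 6.35e-05, SE 0.07) in the authors' deposited table, with a mean normalized count of 1693. Its fold was 1.29, with a 95% interval of 1.18 to 1.42 from the SE. Calm2 (Entrez gene 12314, chromosome 17, 87433401 to 87446935) stood at 0.24 (adjusted p 0.0342, SE 0.07) in the authors' deposited table, at a mean count of 3223. This is a 1.18-fold difference with an interval of 1.07 to 1.30. The Calm2 call ended once the dependence of fold change on GC content, mean count and transcript length was removed, which left a log2 fold change of 0.023 (adjusted p 0.939). Under the same setting Calm3 kept 0.36 (adjusted p 0.000196).

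Calm2 and Calm3 differed by 0.13 on the log2 scale. Their intervals (0.092 to 0.38 and 0.24 to 0.51) overlapped, and the difference between the genes was not tested. Among the 1293 rows with a mean count of at least 1500, which both genes reach, 6.11% were called higher and the median log2 fold change was 0.057. Of the calmodulin-like genes of other tissues, Calm4, Calm5 and Calml4 were examined only in their promoter windows, and Calml3 was not analysed here.

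The Iqcf genes were scarce, and 2 of the 4 with a row, Iqcf3 and Iqcf4, were called lower in the flox samples. Iqcf3 (Entrez gene 68265, chromosome 9, 106504665 to 106561646) fell by 1.57 on the log2 scale (adjusted p 1.83e-05, SE 0.28) in the authors' deposited table, at a mean count of 102. Its level was 2.97-fold lower, with a 95% interval of 2.04 to 4.33. Iqcf4 (Entrez gene 67320, chromosome 9, 106568319 to 106570967) fell by 1.83 (adjusted p 0.00990, SE 0.49) in the authors' deposited table, at a mean count of 48.3. Its 3.54-fold difference had the wide interval of 1.83 to 6.86.

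The remaining pair were not called, at still lower counts. Iqcf5 (Entrez gene 75470, chromosome 9, 106514573 to 106516003) stood at -1.26 (adjusted p 0.107, SE 0.49) in the authors' deposited table, at a mean count of 21.7. Iqcf1 (Entrez gene 74267, chromosome 9, 106499967 to 106502250), whose protein is known from the sperm acrosome, stood at -1.07 (adjusted p 0.200, SE 0.50) in the authors' deposited table, at a mean count of 24.9. The 4 intervals overlapped, from -2.22 to -0.30 for Iqcf5 and -2.06 to -0.091 for Iqcf1 to -2.12 to -1.03 for Iqcf3 and -2.78 to -0.87 for Iqcf4. Differences between the 4 genes were not tested. Among the 4333 rows with mean counts of 20 to 110, the range that holds the Iqcf genes, 4.68% were called lower and the median log2 fold change was -0.085.

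**Figure D1:**
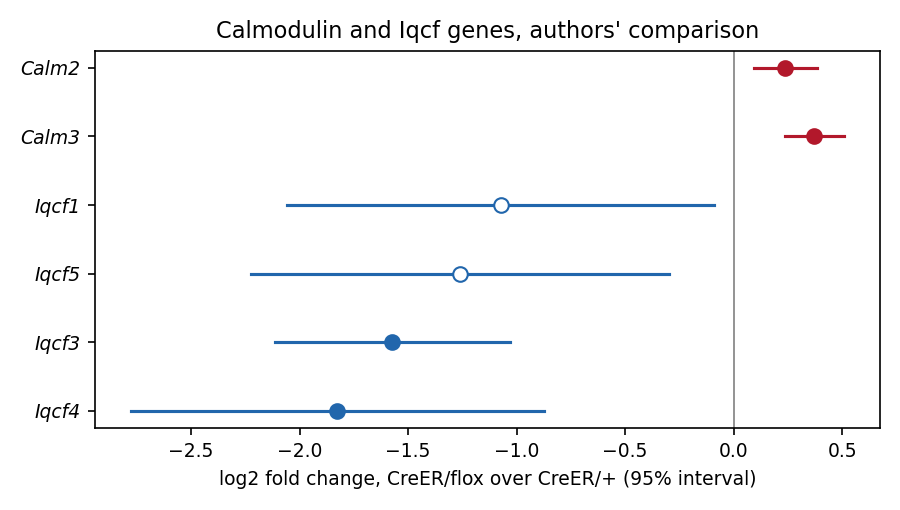
Log2 fold change of CreER/flox over CreER/+ (x axis) for the calmodulin genes (red) and Iqcf genes (blue), with 95% intervals from the deposited SE; filled points were called at an adjusted p under 0.05. The calmodulin genes lie at 0.24 and 0.37, and the Iqcf genes between -1.83 and -1.07 with intervals that are several times wider.

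Levels differed far more between the families than between the groups. Per kilobase of the longest annotated transcript, Calm2 was at 2675 mean counts and Calm3 at 739. On the same scale Iqcf3 was at 88.6, Iqcf4 at 63.8, Iqcf5 at 39.4 and Iqcf1 at 35.6. Calm2 ranked above 98.9% of rows by this level, and Iqcf1 near the 35.2 percentile. Without values per library, which neighbours in this order differ beyond their spread was not tested. The SE of Iqcf4 was 1.55 times the median of rows of like mean count, that of Iqcf3 1.27 times, and that of Calm3 0.87 times. Iqcf3 and Iqcf4 lay at the 0.40 and 0.17 percentiles of log2 fold change over all rows, near the bottom, and Calm3 at the 92.6 percentile.

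**Figure D2:**
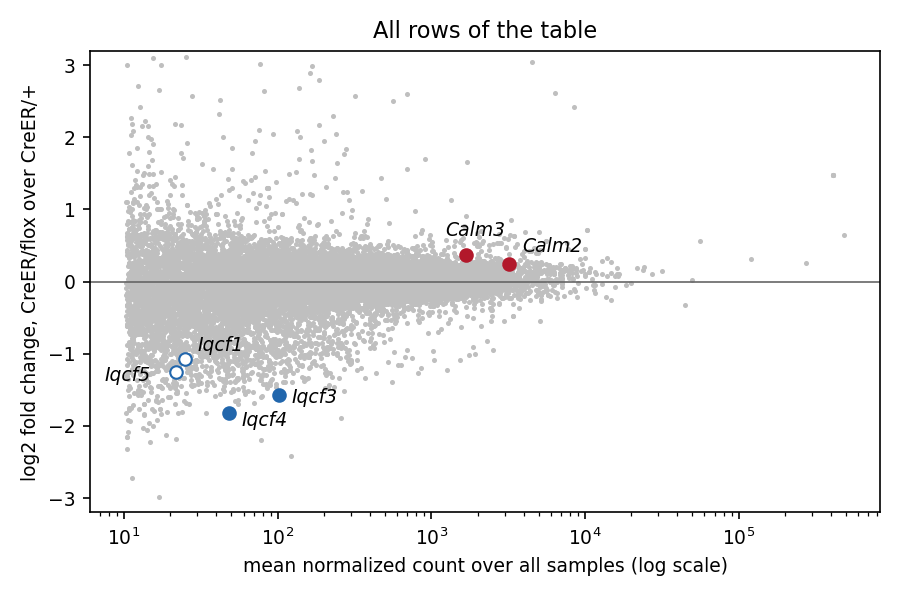
Log2 fold change (y axis) against mean normalized count over all samples (x axis, log scale) for all rows (grey), with calmodulin genes in red and Iqcf genes in blue; filled points were called, and 4 rows lie beyond the y axis. Calmodulin genes sit at counts above 1500 just over 0, whereas the Iqcf genes sit at counts of 21.7 to 102 in the lower part of the cloud.

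The position of the genes was not used to choose them. The Iqcf genes, with Iqcf6, occupy 128 kb of chromosome 9 (106499967 to 106627675 in GRCm38). Within 250 kb on either side, 12 other genes had rows, with a median log2 fold change of 0.091. Of these, 1 was called higher and none lower, beside 1.94% and 3.42% of all rows. The genes beside the cluster were Rrp9, a nucleolar protein gene (0.14, SE 0.11), 14.6 kb before it, and Tex264, a receptor of selective autophagy (0.00061, SE 0.14), 31.1 kb after it, in the authors' deposited table. Rpl29, a ribosomal protein gene 68.4 kb before the cluster, was called higher (0.24, adjusted p 0.0393, SE 0.08) in the authors' deposited table. The lowest neighbour in the authors' deposited table was Rad54l2, at -0.20 (adjusted p 0.197, SE 0.09). That value lay above the upper end of the Iqcf3, Iqcf4 and Iqcf5 intervals and within the interval of Iqcf1. Because the members were chosen on their fold changes, their difference from the neighbours is a description and was not tested.

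**Figure D3:**
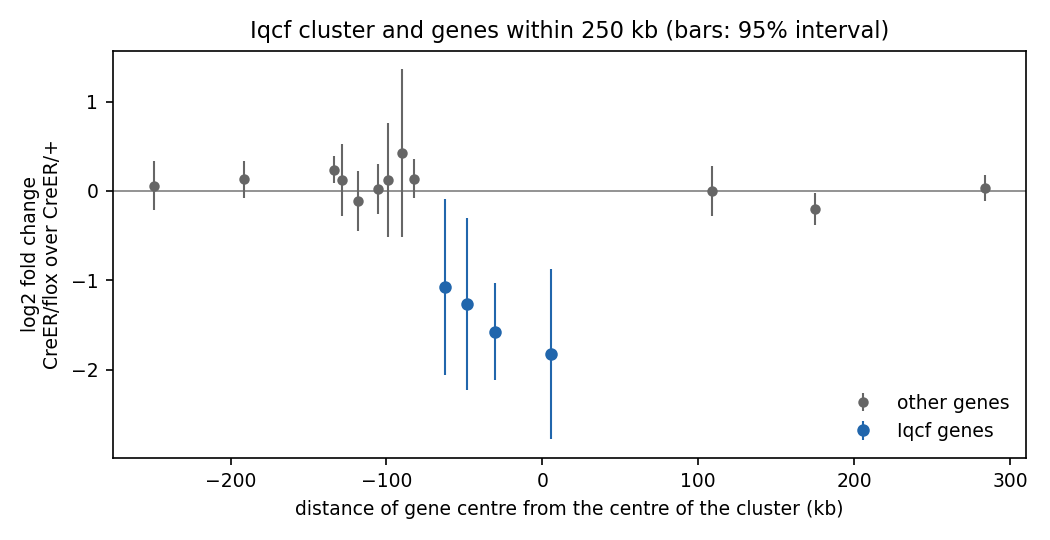
Log2 fold change (y axis) of the Iqcf genes (blue) and the 12 other genes with rows within 250 kb (grey), against the distance of the gene's centre from the centre of the cluster in kb (x axis); bars are 95% intervals. The Iqcf genes lie between -1.83 and -1.07, while the genes around them lie between -0.20 and 0.42.

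Around Calm3, 10 genes had rows, 8 of them above 0, with a median of 0.24. Of the 10, 1 was called higher and none lower, beside 1.94% and 3.42% of all rows. Prkd2, a protein kinase gene 44.9 kb away, was called higher (0.67, adjusted p 0.0475, SE 0.22) in the authors' deposited table. The nearest were Dact3, a regulator of WNT signalling (0.26, SE 0.36), and Pnmal2 (-0.18, SE 0.30), neither called in the authors' deposited table. Around Calm2, 6 genes had rows and none was called, with a median of 0.11. The nearest, Stpg4, stood at -0.77 (adjusted p 0.166, SE 0.34) in the authors' deposited table. On the far side the nearest with a row was Epcam, a cell adhesion gene (0.16, adjusted p 0.391, SE 0.10 in the authors' deposited table).

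Sequence similarity could move reads between copies, so it was measured on GENCODE M21 transcripts. Calm2 and Calm3 each encode 149 codons and shared 82.6% of their coding bases. Of the distinct 50-base stretches of Calm2 transcripts, 9.72% also occurred in a transcript of another gene, most often Gm7308. For Calm3 the share was 2.52%, all with Gm5881. No 50-base stretch of an Iqcf gene occurred in another gene, and aligned coding bases of the 5 Iqcf genes were 61.3% to 70.0% identical. Iqcf5 lies within the span of Iqcf3 on the opposite strand and shares no exon base with it. Whether reads of unspliced Iqcf3 RNA counted for Iqcf5 was not tested.

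Other IQ motif genes, which encode calmodulin partners outside the cluster, were examined next. Of 15 measured, 4 were called lower and none higher, beside 3.42% and 1.94% of all rows. Their median was -0.36, beside 0.00071 over all rows. This list and those below were chosen with earlier results of these data known, so their counts are a description. Iqcd, a subunit of the nexin-dynein regulatory complex of the flagellum, fell by 1.28 (adjusted p 0.00625, SE 0.33) in the authors' deposited table. Iqcm fell by 1.13 (adjusted p 0.0361, SE 0.36), Iqch by 0.70 (adjusted p 0.0259, SE 0.21) and Iqce, a ciliary gene, by 0.43 (adjusted p 0.0170, SE 0.12) in the authors' deposited table. With the dependence on length, GC content and mean count removed, Iqce and Iqcm lost their calls, 2 genes stayed called lower, 1 was called higher and the median was -0.27.

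The lists of enzymes that calmodulin regulates are read beside 3.42% of all rows called lower and 1.94% called higher. Of 22 measured genes of calmodulin-dependent kinases, 1 was called lower and none higher (median -0.10). It was Phkg2, the catalytic subunit of a phosphorylase kinase that holds calmodulin as a subunit (-0.84, adjusted p 0.00174, SE 0.19 in the authors' deposited table). In the calcineurin pathway, the calmodulin-dependent phosphatase and its targets, 1 of 15 was called in each direction (median -0.079). Ppp3r1, the widely expressed regulatory subunit, rose by 0.27 (adjusted p 0.0288, SE 0.08) in the authors' deposited table. Ppp3r2, the regulatory subunit of testis, fell by 0.85 (adjusted p 0.0270, SE 0.26) in the authors' deposited table. The call of Ppp3r1 ended with the same dependence removed, and that of Ppp3r2 did not.

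Among 19 other calcium- and calmodulin-linked enzymes and pumps, 3 were called lower and none higher (median -0.12). Pde1a, a calmodulin-stimulated phosphodiesterase, fell by 1.27 (adjusted p 0.00604, SE 0.32), and Adcy1, a calmodulin-stimulated adenylyl cyclase, by 0.93 (adjusted p 0.0219, SE 0.27) in the authors' deposited table. The third was Adcy10, the soluble adenylyl cyclase of sperm, which responds to bicarbonate and calcium without calmodulin (-0.54, adjusted p 0.00750, SE 0.14 in the authors' deposited table). Of 25 calmodulin-binding scaffolds and buffers, Sptan1, a spectrin, was the single call (-0.22, adjusted p 0.0276, SE 0.07 in the authors' deposited table), with a list median of 0.022. Adcy1 and Sptan1 lost their calls once that dependence was removed.

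Of 21 EF-hand and related genes of the male germline, 6 were called lower and 1 higher (median -0.45), beside 3.42% and 1.94% of all rows, and 6 of the 21 lay above 0. Plcz1, the sperm phospholipase that starts calcium waves in the egg, fell by 1.39 (adjusted p 0.000276, SE 0.28) in the authors' deposited table. Efcab5 fell by 1.34 (adjusted p 0.00147, SE 0.30) and Cabs1, a calcium-binding protein gene of spermatids, by 0.79 (adjusted p 0.0158, SE 0.22) in the authors' deposited table. Cetn3, a centrin of dividing cells, was the one that rose (0.29, adjusted p 0.0209, SE 0.08 in the authors' deposited table), a call that ended with the dependence removed. All 9 measured genes of CatSper, the sperm calcium channel, were below 0 (median -0.85), and 2 were called. They were the auxiliary subunit genes Catsperg2 (-1.39, adjusted p 5.06e-05, SE 0.26) and Catsperg1 (-1.01, adjusted p 0.00886, SE 0.27) in the authors' deposited table.

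**Figure D4:**
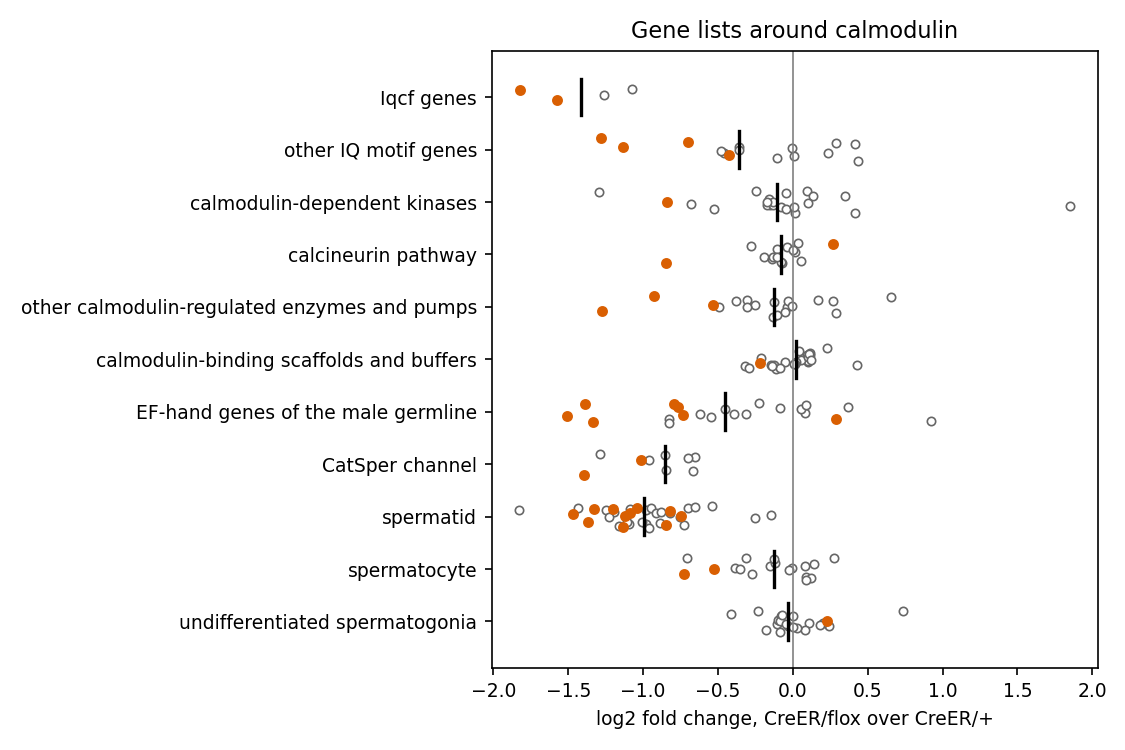
Log2 fold change (x axis) of each measured gene in the lists of Iqcf genes, calmodulin partners and calcium genes and in 3 germ cell marker lists (y axis); orange points were called, open points were not, and black bars are list medians. The kinase, calcineurin and scaffold lists centre near 0, and the Iqcf, CatSper and spermatid lists lie lower, with medians of -1.42, -0.85 and -0.995.

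Of 36 markers of spermatids, the cells that normally express Iqcf genes, 11 were called lower and none higher, beside 3.42% and 1.94% of all rows. All 36 had rows and were below 0, with a median of -0.995, and the rest were not called. The list was chosen with earlier results of these data known, so these counts are a description. The strongest calls were the sperm tail gene Odf1 (-1.14, adjusted p 0.000125), Txndc2 (-1.09, adjusted p 0.00119), Spata18 (-1.04, adjusted p 0.00134) and Spem1 (-1.47, adjusted p 0.00144), per the authors' deposited table. Mean counts of the 36 ran from 10.4 to 2304 in the authors' deposited table, and the SEs were 1.58 times those of rows of like mean count (median). In bulk samples, fewer spermatids and less RNA per cell cannot be told apart, and the part of spermatid RNA in the Iqcf values was not tested. With the dependence on length, GC content and mean count removed, 11 spermatid markers were called lower, no longer Tssk2 among them, and the Iqcf3 and Iqcf4 values were -1.61 and -1.83, both called.

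Of 18 spermatocyte markers, 2 were called lower and none higher (median -0.12), beside 3.42% and 1.94% of all rows. They were Piwil1 (-0.73, adjusted p 0.000111, SE 0.14) and Sycp2 (-0.53, adjusted p 0.0158, SE 0.15) in the authors' deposited table. Of 21 markers of undifferentiated spermatogonia, Dazl was called higher (0.23, adjusted p 0.00997, SE 0.06 in the authors' deposited table) and none lower (median -0.033), a call that ended with that dependence removed. The 7 markers of differentiating spermatogonia had no call (median 0.059), with Sohlh2 at 0.23 (adjusted p 0.175) and Stra8 at 0.30 (adjusted p 0.244), per the authors' deposited table. In the authors' deposited table, Trf of Sertoli cells was called higher (0.62, SE 0.15) and Actg2 of smooth muscle lower (-1.17, SE 0.37), among 7 and 3 measured markers with medians of -0.029 and -1.05; the Actg2 call ended with that dependence removed. No endothelial (5 measured, median 0.0048), erythroid (5, median 0.87), leukocyte (1, -0.14) or Leydig cell marker (1, -0.47) was called. The erythroid median comes from hemoglobin genes whose rows are identical in pairs, with SEs of 1.26 to 1.32. The 5 erythroid rows are therefore not 5 separate measurements.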

How the data were processed

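Per the labels, sorted cells of 8 samples gave stranded, low-input total RNA libraries. Per the submitters' processing notes, DESeq2, Bowtie, Bowtie2 (2.0.0-6), TopHat2 (2.0.4) and Trim Galore were used, with GRCm38 (mm10). The counter and its strand setting are not given in the sources. Mean counts are a signal that the authors normalized and averaged over all samples. The authors also fitted the fold changes and their SEs, in log2 units. The deposited score is the Wald statistic, equal to fold change over SE to within 2.58e-07. The deposited p-values matched a normal distribution to within 0.424%, and the adjusted ones Benjamini-Hochberg over all rows to within 0.426%. No row had a mean count under 10.4. Library totals were not used here. The test between groups is the authors' and was not refitted. Intervals are 95% normal intervals from the SE.

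Entrez IDs matched RefSeq GRCm38.p6 in 14828 of 14853 rows. Lists held calmodulin partners, calcium genes and cell markers. Named genes were the members, their relatives and Tert, up to 4 called genes of smallest adjusted p in each list (up to 2 of smallest p where none was called), and the nearest and called neighbours within 250 kb. Pax7, Zbtb16, Mcam, Kit and Rad54l2 were named outside this rule, as ends of ranges or sort markers. These, and the genes of shared sequence, were named after their values were seen. The members and lists were chosen with earlier results of these data known. The alternatives included fitting and removing a cubic trend of fold change on GC, length and mean count over 13723 protein-coding rows. A planned protein comparison was not run, and 1 gene of the lists is not reported here. The recalculation was tested on simulated data with normal noise of the deposited SE. The real statistics were 1.45 times as wide as a normal distribution in their centre, so the simulation does not cover this extra width. Scipy 1.17.1, numpy 2.4.6 and pandas 2.3.3 were used in Python 3.11.15, with matplotlib 3.10.9 for plots.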

Additional observations from a re-analysis of the deposited data

How the results depend on the processing

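Median centring and trend removal were the settings that could change a direction, since the others keep the deposited fold changes, and the 6 measured members kept theirs under both. The count of 796 called genes became 264 at a threshold of 0.01, 1340 at 0.1, 528 with a log2 fold change of at least 0.5, and 392 with the trend of length, GC and mean count removed. The 2 members called higher became 1 at 0.01 (Calm3), 0 with the minimum fold and 1 with the trend removed (Calm3). The 2 called lower became 1 (Iqcf3) when only rows with a mean count of at least 100 were tested, which leaves out Iqcf1, Iqcf4 and Iqcf5. With a t distribution of 6 degrees of freedom, 0 genes were called over all rows, 0 members higher and 0 lower (1652 genes at an unadjusted p under 0.05). Its adjusted p was 0.439 for Calm2, Calm3, Iqcf3 and Iqcf4. The statistics were 1.45 times as wide as a normal distribution in their centre. With that width divided out, 5 genes and 0 members in either direction were called, and the adjusted p was 0.124 for Iqcf3, 0.168 for Calm3, 0.550 for Iqcf4 and 0.680 for Calm2. An added setting, chosen after seeing the data, took the same trend out of the other gene lists and ended the calls named in the report, beside those of Efcab6 and Tssk2. Median centring, counting identical rows once and testing protein-coding rows only kept all 4 calls. No paired analysis was possible because the table has no values per sample, and for the same reason no sample could be left out. The SEs of Iqcf1, Iqcf4 and Iqcf5 were 0.49 to 0.50, and how far depth sets them was not tested.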

Other observations

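TGACATCA and TGACGTCA, found in Iqcf promoters, and GGGCGG, found in Calm3, were counted over all genes of the table with a promoter window, the Iqcf genes included. This is a description, and TGACATCA was chosen after the sequences were seen. TGACATCA was held by 40 of 396 genes called lower that have a promoter window (10.1%), by 3 of 173 called higher (1.73%) and by 377 of all 11639 (3.24%). The full element TGACGTCA showed another order, with 2.53% of genes called lower, 5.78% of those called higher and 3.48% of all. GGGCGG was held by 44.7% of genes called lower, 68.2% of those called higher and 64.8% of all. Iqcf3 and Iqcf4 are among the 40. No test was made of these shares.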
